A study of Mus musculus with 10 samples.

Results

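Genomic regions at which p65 binding was recorded after lipopolysaccharide (LPS) but not in resting cells, and was still recorded when skatole was given with LPS, were described in the mouse macrophage-like cell line RAW264.7. Peaks of 9 libraries on chromosomes 1 to 19, X and Y were merged into regions wherever they overlapped by at least 1 bp. A region was kept when it held a peak in 0 of 3 DMSO libraries, in 3 of 3 LPS libraries and in 3 of 3 LPS+Skatole libraries. This rule kept 1271 of 235070 merged regions, 0.541% of them. The regions were selected on the presence and absence of peaks, so their absence in DMSO and presence in the other groups is a description and was not tested.

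RAW264.7 is an established line from a mouse tumour that arose after infection with Abelson virus, and all libraries come from this single line. The DMSO group received the solvent, the LPS group received DMSO and LPS, and the LPS+Skatole group received LPS and skatole, an indole that gut bacteria make from tryptophan. Cells were treated for 12 h, each library was made from 200000 cells, and each group has 3 libraries. Binding was mapped by CUT&Tag, in which an antibody brings a transposase to a chromatin protein and the released fragments are sequenced. The labels name a p65 antibody and the methods of the study name one against phosphorylated p65. The dose of skatole in this assay was not given in the sources used here. A Blank sample without primary antibody was not analysed here, so no value is corrected for signal without antibody. Nothing in the labels says that the 3 libraries of a group came from separate cultures, and p-values measure the spread between these libraries, which may be technical.

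The protein p65 (gene Rela) is the subunit of NF-κB that carries a strong activation domain. In resting cells it is held in the cytoplasm by IκB inhibitors. LPS acts through Toll-like receptor signalling to have IκB degraded, and p65 then enters the nucleus and binds κB elements at genes for cytokines, chemokines, survival factors and its own inhibitors. In macrophages many of its sites lie in enhancers far from genes, in chromatin opened by PU.1 and AP-1.

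Of the 1271 regions, 54 held a whole RefSeq promoter window (assembly GRCm38.p6, 250 bases before and 50 bases after an annotated start), 59 windows in all. The promoters of 5 genes are printed because they carry what the region contains at a start site. Il6 encodes an inflammatory cytokine, Ier3 an early-response survival factor, Gpr132 a receptor on macrophages, Ctss the protease cathepsin S and Socs3 an inhibitor of cytokine signalling. Capitals mark matches to the κB consensus, AP-1 (TGANTCA), PU.1 (GAGGAAGT) and IRF (GAAANNGAAA) motifs on either strand, and each sequence runs 5′ to 3′ on the strand of its gene.
Il6, chr5:30012864-30013163, plus strand: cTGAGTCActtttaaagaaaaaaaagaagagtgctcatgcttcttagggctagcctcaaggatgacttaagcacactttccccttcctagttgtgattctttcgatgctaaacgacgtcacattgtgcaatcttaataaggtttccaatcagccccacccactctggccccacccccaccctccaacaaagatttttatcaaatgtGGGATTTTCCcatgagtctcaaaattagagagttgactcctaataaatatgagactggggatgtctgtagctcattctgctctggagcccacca
Ier3, chr17:35821463-35821762, plus strand: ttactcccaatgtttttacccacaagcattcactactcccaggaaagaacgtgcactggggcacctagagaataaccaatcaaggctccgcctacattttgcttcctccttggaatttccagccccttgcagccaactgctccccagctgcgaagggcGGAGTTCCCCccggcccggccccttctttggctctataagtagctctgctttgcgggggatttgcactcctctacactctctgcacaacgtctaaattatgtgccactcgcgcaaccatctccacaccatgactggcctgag
Gpr132, chr12:112860867-112861166, minus strand: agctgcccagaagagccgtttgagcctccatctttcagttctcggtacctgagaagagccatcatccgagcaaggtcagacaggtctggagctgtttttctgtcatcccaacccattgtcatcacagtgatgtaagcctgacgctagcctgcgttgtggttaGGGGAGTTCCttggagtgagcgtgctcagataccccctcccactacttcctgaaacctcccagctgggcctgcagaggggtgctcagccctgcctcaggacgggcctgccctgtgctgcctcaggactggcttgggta
Ctss, chr3:95526536-95526835, plus strand: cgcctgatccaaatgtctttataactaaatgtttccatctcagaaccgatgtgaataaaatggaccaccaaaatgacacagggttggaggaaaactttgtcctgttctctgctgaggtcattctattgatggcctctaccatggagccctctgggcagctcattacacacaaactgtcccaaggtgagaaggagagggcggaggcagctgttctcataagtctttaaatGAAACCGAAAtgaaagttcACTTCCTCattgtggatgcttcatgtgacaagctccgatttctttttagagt
Socs3, chr11:117969317-117969616, minus strand: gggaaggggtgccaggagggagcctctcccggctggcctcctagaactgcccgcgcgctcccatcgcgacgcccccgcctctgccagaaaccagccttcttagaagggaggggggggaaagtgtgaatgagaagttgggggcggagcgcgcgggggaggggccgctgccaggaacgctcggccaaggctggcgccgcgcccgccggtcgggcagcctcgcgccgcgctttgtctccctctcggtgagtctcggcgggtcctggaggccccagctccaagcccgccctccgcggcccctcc
The Il6 window holds the κB match GGGATTTTCC, which begins 44 bases before the start, and an AP-1 match TGAGTCA that begins 249 bases before it. The Ier3 window holds GGAGTTCCCC, beginning 92 bases before the start, and the Gpr132 window holds GGGGAGTTCC, beginning 88 bases before it. The Ctss window has no κB match and holds the IRF match GAAACCGAAA, beginning 21 bases before the start, next to a PU.1 match. The Ctss region was a weak peak, with deposited folds over local background of 1.67 to 2.34 and a mean percentile of 32.1 in the lists. Its local background was 19.4 times the genome-wide background. The Socs3 window holds none of the 4 motifs. The median summit of the 6 peaks lay 11 bases before the Gpr132 start, 97.5 bases before the Ier3 start and 159 bases after the Il6 start.

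Over the 59 windows, 10 (16.9%) held a κB match, 10 (16.9%) an AP-1 match, 6 (10.2%) a PU.1 match and 2 (3.39%) an IRF match. Among all 32851 promoter windows the shares were 8.46%, 7.81%, 3.20% and 3.44%. Among the 7875 windows inside regions with a peak in all 9 libraries they were 10.7%, 4.81%, 3.38% and 2.98%. Some regions hold more than 1 window, so the windows are not independent, and a match is a string of letters and not a measured site. The overlapping windows of Gm33315, for example, share their AP-1 matches. The median summit lay inside 29 of the 59 windows, and 12 windows were in regions with a local background over 5 times the genome-wide background. Only 64 of the 1271 regions (5.04%) touched any promoter window, so these shares describe a small part of the set. The sequence of the other regions was not analysed here.

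The measure of binding in a region is its level, the number of fragments at the highest summit divided by the genome-wide background of that library. Both were recovered from the deposited fold and −log10 p of the peak. The genome background, which stands for depth, was 1.09 to 1.40 fragments for DMSO, 2.23 to 2.34 for LPS and 2.26 to 2.39 for LPS+Skatole. The DMSO libraries were thus the shallowest, and a peak there needed a level of at least 6.44 to 7.34, against 4.59 to 4.94 in the other libraries. The lists held 37551 to 43450 peaks for DMSO, 55637 to 63498 for LPS and 78136 to 80153 for LPS+Skatole. Depth and list length move with the treatment, and their part in the selection cannot be separated by the rule alone.

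The rule asks for a peak in all 6 LPS and LPS+Skatole libraries, so the levels there are selected to be high, and shares computed from them describe the regions kept and test nothing. In 1035 of the 1271 regions (81.4%) all 6 levels lay above 7.34, the highest of the DMSO minimums. At its mean LPS level and its own local background, 1238 regions (97.4%) would have passed the threshold in all 3 DMSO libraries. When the fragments were thinned to an equal background in all libraries, 821 regions followed the rule, 774 of them among the 1271. When all lists were cut to an equal length, 680 followed it, 640 of them among the 1271.

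Independent readings came from leaving out each library, selecting regions with the other 8, and looking in the library left out. In the LPS libraries left out, 74.8%, 76.3% and 78.5% of the selected regions held a peak, a mean of 76.5% ± 1.88 (SD, n = 3). In the LPS+Skatole libraries the shares were 89.0%, 87.0% and 86.8%, a mean of 87.6% ± 1.22 (SD, n = 3). In the DMSO libraries the shares were 27.2%, 35.6% and 34.8%, a mean of 32.5% ± 4.59 (SD, n = 3), so about this share of regions empty in a pair of DMSO libraries held a peak in the remaining one. Among all regions merged from the other 8 libraries the shares were 11.2% to 12.8% for DMSO, 17.3% to 18.8% for LPS and 21.97% to 22.3% for LPS+Skatole. Regions selected as empty in the other DMSO libraries thus held a DMSO peak more often than the merged regions as a whole. The merged regions as a whole are not a like set, as they include 88816 regions with a peak in 1 LPS+Skatole library only. A closer set is the 19799 regions with a peak in every LPS and LPS+Skatole library. Of these, 13824 held a peak in all 3 DMSO libraries, so a DMSO peak was more frequent there than in the selected regions. Within this set, absence from the other DMSO libraries thus went with a lower share in the library left out. For LPS and LPS+Skatole, a closer set is the regions with a peak in all 3 DMSO libraries. With all LPS+Skatole libraries as well, 13824 held a peak in 3 LPS libraries and 564 in 2. With all LPS libraries, 480 held one in 2 LPS+Skatole libraries. Without a DMSO peak the counts were 1271 against 1168 and 544, so presence was less uniform in the selected regions. The shares of the selected regions do not overlap between the 3 groups, but the sets compared were selected differently. Those for DMSO had to lack a peak in the other DMSO libraries, and those for LPS or LPS+Skatole had to hold one in the other libraries of the group. List length also differed between the groups, so the distance between the shares is not a test of the treatments.

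**Figure D1:**
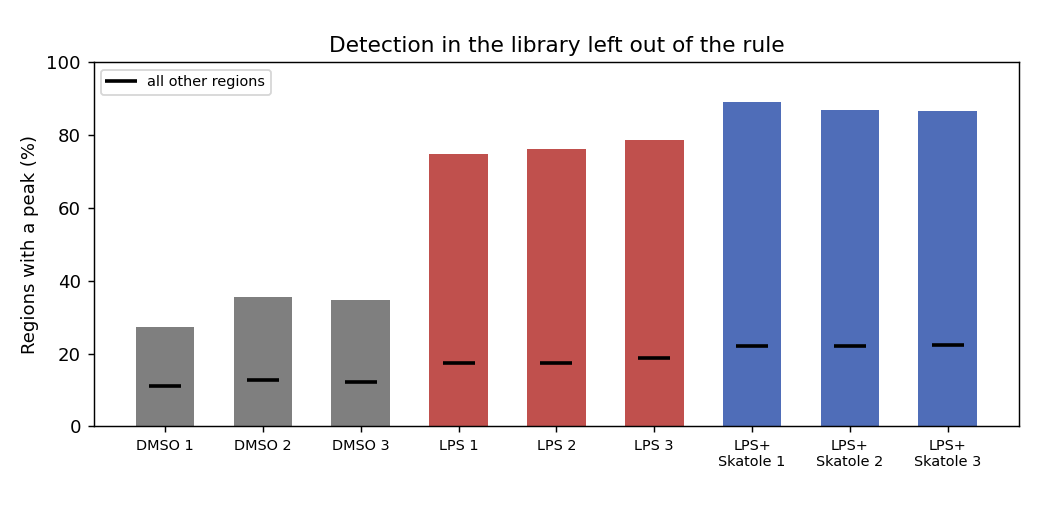
Share of regions (%, y axis) with a peak in the library left out of the rule (x axis), for regions selected with the other 8 libraries (bars) and for all regions merged from those 8 libraries (black marks, labelled all other regions). Bars stand at 27.2% to 35.6% for DMSO, 74.8% to 78.5% for LPS and 86.8% to 89.0% for LPS+Skatole.

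With 0 DMSO and 3 LPS libraries, 2314 regions were found, and the 1271 are 54.9% of them. A peak was present in 2 LPS+Skatole libraries in 544 regions, in 1 in 338 and in none in 161. On the other side of the rule, 1168 regions had peaks in no DMSO library, 2 LPS libraries and all LPS+Skatole libraries, and 1845 had a peak in 1 DMSO library with all 6 others. In these 1845, the lone DMSO peak had a median of 18 fragments and a median rank at the 48.3 percentile of its list. The peak lists end at a −log10 p of 5. At least 1 of the 6 peaks had a −log10 p under 6 in 68 regions, and the median over regions of the weakest peak was 11.9.

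The LPS-induced regions were modest peaks, well below the regions bound in every condition. The median level per library was 13.1, 13.5 and 14.1 after LPS alone. With skatole added it was 17.95, 19.02 and 17.95. The means of these medians were 13.5 ± 0.505 (SD, n = 3) and 18.3 ± 0.617 (SD, n = 3), a ratio of 1.35. In the 13824 regions with a peak in all 9 libraries the corresponding means were 28.4 ± 0.993 and 34.5 ± 0.423 (SD, n = 3 each), a ratio of 1.21. Thus each LPS+Skatole library lay above each LPS library in both classes. Regions with a peak in 1 DMSO library, at 13.98 ± 0.499 and 18.7 ± 0.326 (SD, n = 3 each), were close in level to the LPS-induced regions.

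**Figure D2:**
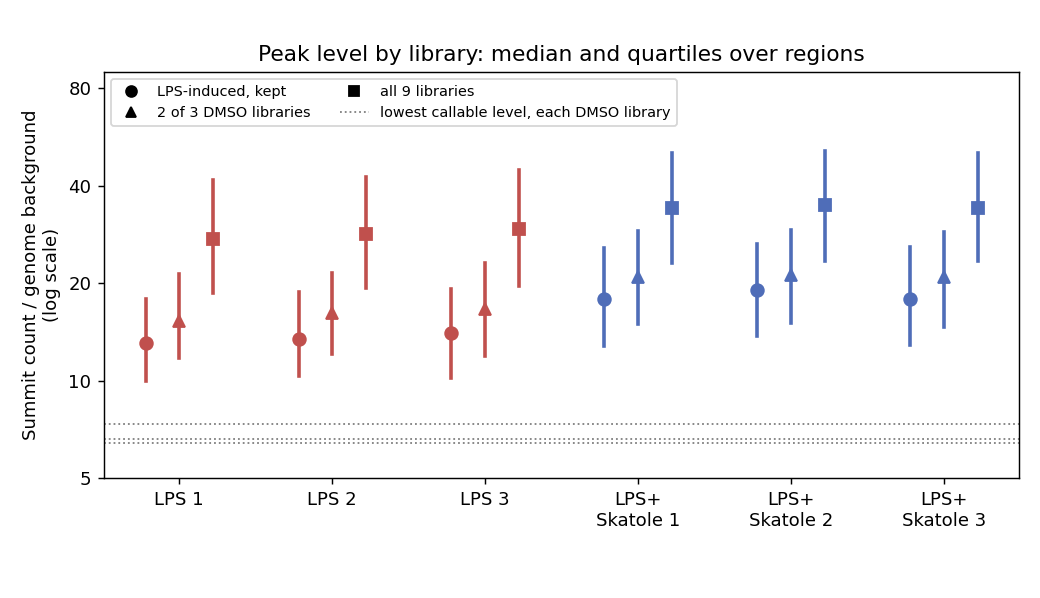
Peak level (fragments at the summit over the genome background, log scale) in each LPS and LPS+Skatole library, as median (symbol) and quartiles (line) over 1271 LPS-induced regions (circles), 2859 regions with a peak in 2 of 3 DMSO libraries (triangles) and 13824 regions with a peak in all 9 (squares); dotted lines give the lowest level a peak could have in each DMSO library. The circles stand at 13.1 to 14.1 with LPS and 17.95 to 19.02 with LPS+Skatole.

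The central comparison asked whether binding at these regions differed when skatole was added to LPS. The rule limits this comparison, since it keeps only regions with a peak in all 6 of these libraries. Regions that lost the peak in 1 or more LPS+Skatole libraries (the 544, 338 and 161 given above) and regions without one in every LPS library are not in it. Differences that go with a missing peak, in either direction, are therefore left out, and their size was not measured here. The counts of higher and lower regions describe the regions kept and do not measure how often binding was lost or gained. limma was fitted on log2 level to all 19799 regions with peaks in the 6 libraries, and p-values were adjusted over all of them by the Benjamini-Hochberg method. Among the regions kept, 0 were lower with skatole at an adjusted p under 0.05, a count that the rule in part fixes, and 88 of 1271 (6.92%) were higher. Among all regions tested, 3.74% were higher and 0.0707% were lower. At an unadjusted p under 0.05, 354 of the 1271 and 4345 of the 19799 differed. The median log2 difference was 0.41 over the 1271 regions and 0.27 over all regions, and 1039 (81.7%) of the 1271 were higher in the mean against 79.2% of all.

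The scale decides most of these calls. Centring each library on its median moved the median of all regions down by 0.32 on the log2 scale, from 0.27 to -0.05. The share of calls that were higher then moved from 98.1% to 30.4%, with 14 regions higher and 32 lower. Of the 1271, 4 remained called as higher and 0 as lower, and their median was 0.09. The median of the LPS-induced regions lay 0.14 above that of all regions, a distance that centring cannot change. With the deposited fold over local background in place of the level, the distance was 0.10 on the log2 scale. On that scale limma called 0 of the 1271 in either direction, and 5 of all 19799 as higher and 2 as lower. The unadjusted p was under 0.05 for 246 of the 1271 and 3088 of the 19799.

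Without any model, all 3 LPS+Skatole levels lay above all 3 LPS levels in 369 of the 1271 regions (29.0%), where 24.2% of all regions tested did. All 3 lay below in 19 (1.49%), where 1.55% of all did. The groups overlapped in the other 883. After median centring the counts were 152 above and 79 below, and 6.86% and 10.2% of all regions. An exact permutation test of 3 against 3 libraries cannot give a two-sided p under 0.1, so none is given, and the p-values of single regions are those of the limma fit.

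The distance to the other regions followed the number of DMSO libraries with a peak. The median log2 difference was 0.41 with 0 DMSO libraries, 0.39 with 1, 0.34 with 2 and 0.24 with 3. The shares called higher were 6.92%, 5.80%, 4.55% and 3.01%. After median centring the medians were 0.09, 0.07, 0.02 and -0.08. The level also rose along this order, and its part in the pattern was not tested.

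**Figure D3:**
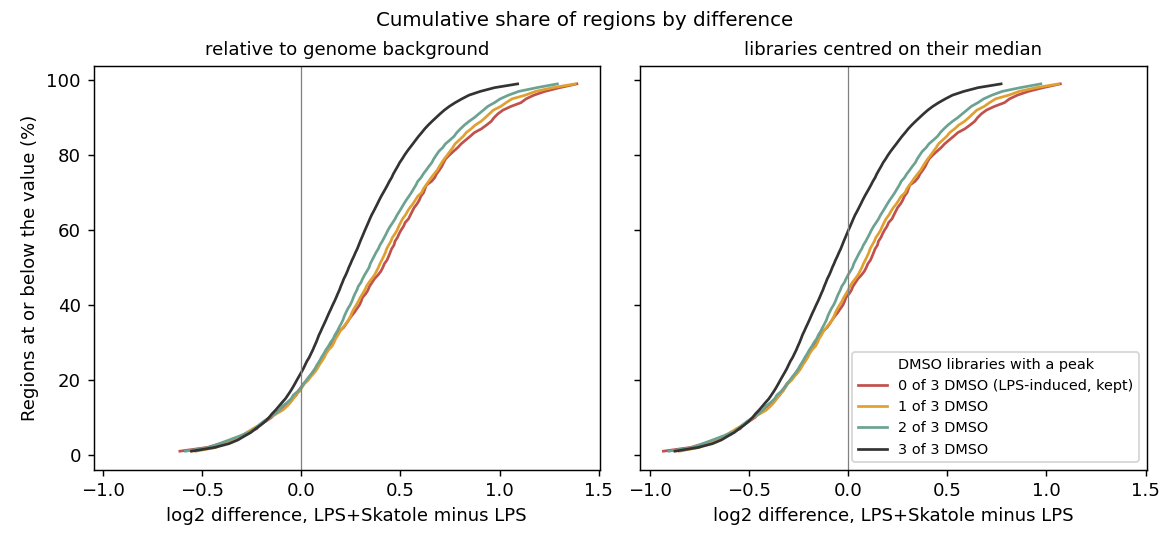
Cumulative share of regions (%, y axis) by log2 difference of LPS+Skatole minus LPS (x axis), for regions with a peak in 0, 1, 2 or 3 DMSO libraries and in all 6 others, on the level over genome background (left) and with each library centred on its median (right). The medians fall from 0.41 to 0.24 on the left and from 0.09 to -0.08 on the right.

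Of the 88 called regions, 46 lay in gene bodies, 33 between genes and 9 within 3 kb of a gene end. Their log2 differences ran from 0.76 to 2.01 with a median of 1.21, and in all 88 the groups did not overlap. Leaving out 1 library at a time kept between 19 (without LPS+Skatole replicate 2) and 45 (without LPS replicate 3) of the 88 calls. The replicates of a group have no order, and the 6 libraries are named by number only.

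The highest difference was at a region in Slc20a2, a phosphate transporter gene, at chr8:22489577-22492037. Its counts were 15, 16 and 12 with LPS and 43, 84 and 55 with LPS+Skatole. The groups were far apart, with a log2 difference of 2.01 ± 0.35 (SE) and an adjusted p of 0.00235 in limma. A region in Golim4, which encodes a Golgi membrane protein, at chr3:75947131-75949998, had counts of 25, 31 and 35 and then 103, 101 and 112. The groups were well apart, at 1.78 ± 0.28 (SE) and an adjusted p of 0.000798. An intergenic region at chr9:120824346-120827997 had counts of 87, 32 and 44 and then 139, 152 and 176. Its log2 difference was 1.61 ± 0.27 (SE), with a local background 14.1 times the genome background. A region in Peak1, a pseudokinase gene, at chr9:56369758-56371211, had counts of 24, 24 and 25 and then 81, 106 and 80, a difference of 1.83 ± 0.30 (SE). These 4 regions stayed called without any single library and after median centring, and none was called on the deposited fold over local background. On that scale the log2 differences were 1.94 at Slc20a2, 1.74 at Golim4 and 0.57 at the chr9:120824346 region. At Slc20a2 and at the chr9:120824346 region the mean LPS level would not have passed the threshold in all 3 DMSO libraries. Of the 88 called regions, 10 were lower in the mean on the fold scale and 3 on the percentile in the list. Peak1 was one of the 10, at -1.14 (log2) on the fold scale, with a local background 8.34 times the genome background over the 6 libraries. Its mean fold was 5.73 with LPS and 2.63 with LPS+Skatole. A region in Dennd2d (chr3:106495531-106497196) had counts of 13, 18 and 27 and then 86, 65 and 33, a difference of 1.60 ± 0.37 (SE) with an adjusted p of 0.0174. This call was lost, with differences of 1.34, 1.30 and 1.48, without LPS replicate 1, LPS+Skatole replicate 1 or LPS+Skatole replicate 2.

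In the opposite direction, the 3 lowest of the 19 regions without overlap were not called. An intergenic region at chr1:171540177-171542479 had 97, 52 and 56 fragments with LPS and 35, 30 and 35 with LPS+Skatole, a log2 difference of -1.01 with an adjusted p of 0.0583 in limma. A region in Fut8, a fucosyltransferase gene, had 66, 83 and 99 and then 39, 46 and 55, with -0.85 and an adjusted p of 0.0715. A region in Osbpl3, a lipid-binding protein gene, had 60, 71 and 54 and then 45, 39 and 27, with -0.79 and an adjusted p of 0.132. They were chosen after their values were seen.

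Genes of inflammation and metabolism were then taken from 12 lists of 300 genes, 297 of which matched the RefSeq table. At 26 of these genes (8.75%) an LPS-induced region overlapped the gene or lay within 3 kb of it, 32 regions in all, against 756 of all 21883 protein-coding genes (3.45%). Listed genes also held many regions with peaks in all 6 libraries. Of 485 such regions at listed genes 6.60% were LPS-induced, close to the 6.42% of all 19799 regions tested. The share was 4.95% of the 15249 regions not classed as intergenic, which were assigned by their summit and so by another rule. Among the 32 regions, 22 were higher and 10 lower in the mean with skatole, with a median log2 difference of 0.26. All 3 LPS+Skatole levels lay above the LPS levels in 11 of the 32 regions and below in 2, where 24.2% and 1.55% of all regions tested did. limma called 4 as higher and 0 as lower, with the background of 3.74% and 0.0707% given above. After median centring 0 of the 4 stayed called.

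**Figure D4:**
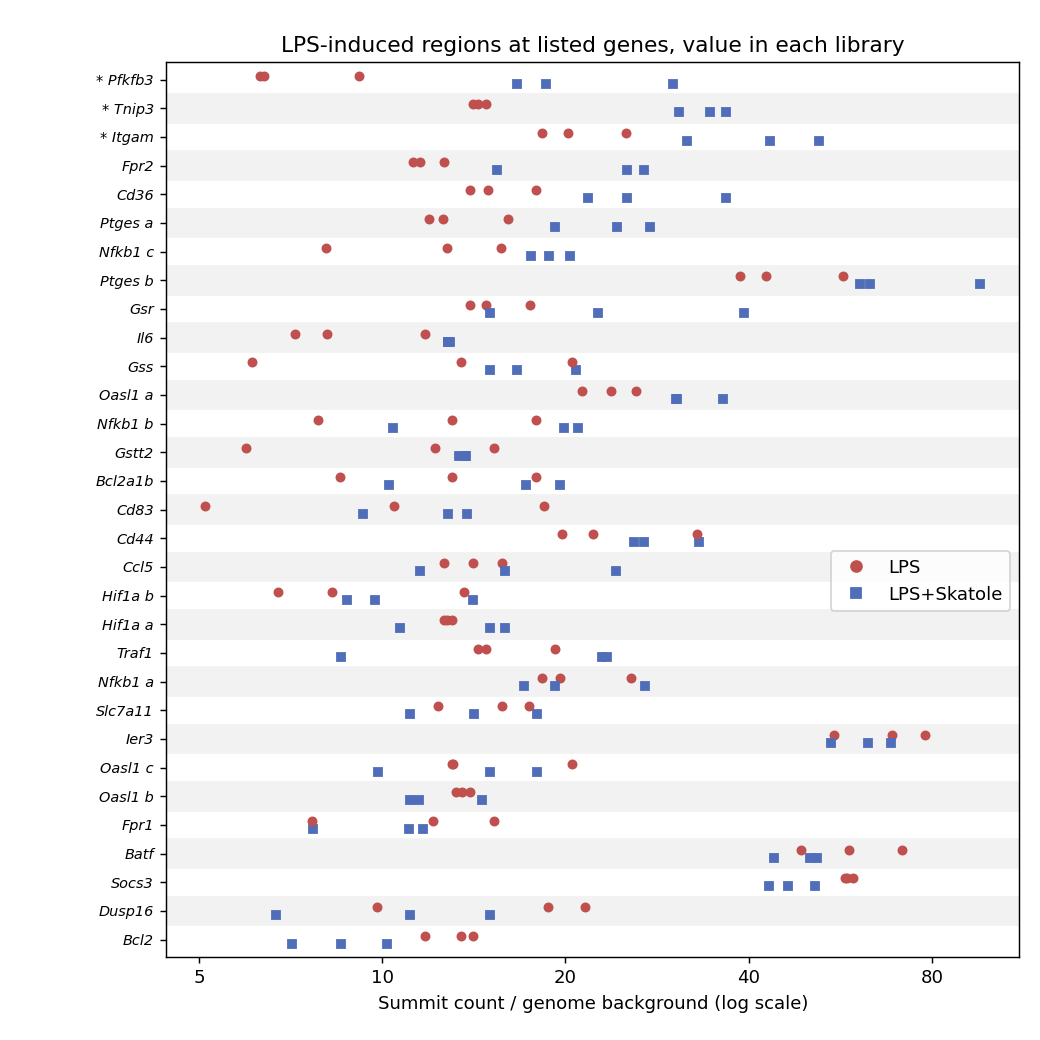
Peak level (fragments at the summit over the genome background, log scale, x axis) in each of 3 LPS (red circles) and 3 LPS+Skatole (blue squares) libraries at 31 of the 32 LPS-induced regions at listed genes, ordered by log2 difference; letters number the regions of 1 gene by position and an asterisk marks an adjusted p under 0.05 in limma. The 3 marked regions, at Pfkfb3, Tnip3 and Itgam, have all 3 blue values to the right of all 3 red ones.

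Among cytokine genes, 1 of 27 held an LPS-induced region, at the Il6 promoter shown above (chr5:30012490-30013864). Its counts were 27, 16 and 19 with LPS and 30, 29 and 31 with LPS+Skatole. The groups did not overlap, with levels of 9.02 ± 2.42 and 12.9 ± 0.0690 (SD, n = 3 each), and the difference of 0.54 was not called (adjusted p = 0.358 in limma). DMSO replicate 2 held a peak 884 bp from this region, and the other DMSO libraries held none within 3 kb of Il6. Among chemokine genes, 1 of 19 held one, at Ccl5 (chr11:83527319-83528807), which encodes a chemokine that draws T cells and monocytes. Its counts were 29, 35 and 33 and then 27, 36 and 58, and the groups overlapped. No DMSO library had a peak anywhere within 3 kb of Ccl5, Batf, Fpr1 or Fpr2.

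Of 5 genes for NF-κB subunits, Nfkb1, which encodes p105 and its product p50, held 3 LPS-induced regions, all in the gene body. The region at chr3:135671625-135673820 had 36, 18 and 30 fragments and then 44, 46 and 42, without overlap. The region at chr3:135639604-135641732 had 42, 57 and 46 and then 40, 61 and 46, with nearly equal means. The third, at chr3:135658220-135659781, had 18, 29 and 42 and then 49, 45 and 25. None was called. All 5 subunit genes also held regions with a peak in all 9 libraries, and Nfkb1 held 5 of them.

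Feedback inhibitors of the pathway had LPS-induced regions at 3 of 23 genes, of which 1, at Tnip3, was called higher and 0 lower. Tnip3 encodes a partner of Tnfaip3, the enzyme that ends NF-κB signalling. Its region at chr6:65591745-65593022 had 33, 33 and 33 fragments with LPS and 72, 78 and 88 with LPS+Skatole. The level was 14.4 ± 0.376 against 34.0 ± 3.02 (SD, n = 3 each), 2.36 times as high, with a log2 difference of 1.23 ± 0.29 (SE) and an adjusted p of 0.0178. At its mean LPS level this region would not have passed the threshold in all 3 DMSO libraries, and a DMSO peak lay 759 bp away. The call was lost, at 1.23, 1.22 and 1.18, without LPS replicate 1, LPS+Skatole replicate 2 or LPS+Skatole replicate 3. At the Socs3 promoter (chr11:117968996-117970097) the counts were 133, 128 and 139 and then 101, 105 and 123, so that all 3 LPS+Skatole values were the lower ones. The difference of -0.31 was not called (adjusted p = 0.364 in limma), and the local background was 22.8 times the genome background. At Dusp16, a MAP kinase phosphatase gene, the counts were 43, 48 and 23 and then 26, 34 and 16, with overlap.

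Survival genes held LPS-induced regions at 4 of 16. The region in Bcl2 (chr1:106694757-106697012), the founding anti-apoptotic gene, had 27, 30 and 33 fragments and then 20, 23 and 17. All 3 values with skatole were lower, but the difference of -0.62 was not called (adjusted p = 0.286). The Ier3 promoter region (chr17:35819513-35822536) had 127, 153 and 183 and then 128, 142 and 164, and the groups overlapped. It was among the highest counts at listed genes, on a local background 28.5 times that of the genome, with a DMSO peak 633 bp away. At Traf1, a signalling adaptor of TNF receptors, the groups overlapped (34, 32 and 45, then 20, 53 and 55). They also overlapped at Bcl2a1b, whose near-identical copies make the placing of its fragments uncertain.

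Among transcription factor genes, 2 of 46 held LPS-induced regions. The region in Batf, an AP-1 family member (chr12:85704779-85705863), had 112, 159 and 137 fragments and then 103, 117 and 121, on a local background 24.6 times that of the genome. Hif1a, which drives the response to low oxygen, held 2 regions. Counts there were 29, 29 and 30 and then 25, 36 and 36 in one, and 19, 15 and 32 and then 33, 22 and 21 in the other. The groups overlapped in all 3 regions.

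Inflammatory enzymes and metabolic genes had LPS-induced regions at 4 of 33, among them Pfkfb3 with the highest log2 difference of the 32 regions. Pfkfb3 encodes an enzyme that promotes glycolysis. Its region at chr2:11511966-11513472 had 21, 14 and 15 fragments with LPS and 39, 42 and 72 with LPS+Skatole, and the groups were well apart. The level was 2.99 times as high, with a log2 difference of 1.55 ± 0.35 (SE) and an adjusted p of 0.0149, and the call was lost at 1.30 without LPS+Skatole replicate 3. Ptges, which makes prostaglandin E, held 2 regions without overlap. One had 89, 95 and 134 and then 225, 143 and 146 fragments, and the other 37, 28 and 28 and then 45, 55 and 66. Neither was called (adjusted p = 0.0704 and 0.130 in limma). In Slc7a11, the cystine importer gene, the groups overlapped (40, 35 and 29, then 26, 32 and 43).

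Of the genes for receptors, 3 of 45 held LPS-induced regions. Fpr1 and Fpr2 are neighbouring genes for receptors of formylated bacterial peptides, and the region between chr17:17883903 and chr17:17902454 held 3 of the 1271 regions. The one at Fpr2 had 29, 25 and 27 fragments and then 63, 57 and 37, without overlap (0.89, adjusted p = 0.107 in limma). The one at Fpr1 had 35, 27 and 18 and then 18, 25 and 28, with overlap. Cd36, a scavenger receptor gene, had 41, 31 and 35 and then 51, 57 and 88, without overlap (0.81, adjusted p = 0.116).

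Genes for surface and adhesion molecules held LPS-induced regions at 3 of 22. Itgam encodes an integrin chain that marks macrophages. Its region at chr7:128062211-128064141 had 42, 45 and 59 fragments and then 122, 98 and 76, a log2 difference of 0.98 ± 0.27 (SE) with an adjusted p of 0.0332. The call was lost, at 0.82 to 0.95, without LPS replicate 1 or 2 or without LPS+Skatole replicate 1 or 2. At Cd44 (51, 44 and 77, then 63, 75 and 62) and Cd83 (24, 41 and 12, then 30, 21 and 33) the groups overlapped. Of 24 interferon-stimulated genes, Oasl1 held 3 regions within 9138 bp. The first of them (chr5:114925473-114927692) had 60, 53 and 50 and then 71, 69 and 87, without overlap and not called, and the other two overlapped.

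Glutathione and antioxidant genes held LPS-induced regions at 3 of 18. At Gsr, glutathione reductase, the counts were 34, 31 and 41 and then 53, 89 and 36. At Gss, glutathione synthetase, they were 14, 30 and 48 and then 39, 47 and 36. At Gstt2, a glutathione transferase, they were 28, 34 and 14 and then 32, 31 and 32. The groups overlapped at all 3, and the adjusted p was 0.264, 0.399 and 0.549 in limma. None of 19 oxidative phosphorylation genes held an LPS-induced region. As 3.45% of all protein-coding genes held one, a count of 0 among 19 is near that share. A region with a peak in all 9 libraries was present at 13 of them, and the share of all genes with such a region was not counted.

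A wider window was also counted. Within 50 kb, a window chosen after seeing the data, 73 of 297 listed genes (24.6%) had an LPS-induced region, against 2268 of all genes (10.4%). The shares were 9 of 27 cytokine genes, 6 of 19 chemokine genes, 9 of 23 feedback inhibitor genes and 2 of 19 oxidative phosphorylation genes. The cytokine genes included Il1a and Il1b, which share 2 intergenic regions between them. The chemokine genes Ccl3, Ccl4, Ccl6 and Ccl9 lie together on chromosome 11 and count through 1 or both of the same 2 regions, and Ccl9 also through the region at Ccl5, so these counts of genes are not counts of separate regions. One of these, at chr2:129330493, 20.3 kb from Il1a and 32.7 kb from Il1b, had 20, 31 and 36 fragments and then 44, 42 and 44. The other, 17.7 kb from Il1a, had 18, 21 and 42 and then 29, 13 and 22. Nfkbia, the gene for the main IκB inhibitor, had 2 regions 16.6 and 23.3 kb away. The nearer one had 32, 25 and 24 fragments and then 28, 42 and 25. The farther one had 42, 52 and 82 and then 110, 67 and 95, and the groups overlapped at both. Between 3 and 50 kb from a listed gene lay 63 LPS-induced regions, of which 3 (4.76%) were called, against 6.92% of the 1271. All 3 LPS+Skatole levels lay above the LPS levels in 13 of the 63, against 24.2% of all regions tested and 29.0% of the 1271. They lay below in 2, near Fpr1 (39, 36 and 31, then 29, 12 and 29, log2 difference -0.73) and near Socs3 (-0.28), neither called. Regions 33.7 kb from the chemokine receptor gene Ccr1, 42.9 kb from the lectin gene Clec7a and 9.99 kb from Tnfsf9 were called higher. Their log2 differences were 1.095, 1.34 and 1.15, with adjusted p of 0.0214, 0.0283 and 0.0431 in limma. None of the 3 stayed called after median centring or on the deposited fold over local background. Distance assigns no target, and several of these regions lie in other genes.

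By strength, the 10 LPS-induced regions of highest mean percentile ranked between 93.3 and 96.9 in their lists, and none was at a listed gene. The highest was in Banp (chr8:122013031-122014421), with 83, 78 and 102 fragments and then 141, 93 and 114. Regions in Sde2, Arhgef3, Stk40, Eif3b and Slc36a4 and 4 intergenic regions followed. The highest count among the 10 was in Eif3b, a translation initiation factor gene, with 193, 209 and 195 and then 232, 350 and 251, on a local background 19.04 times that of the genome. Only the region in Slc36a4, an amino acid transporter gene, was called (81, 92 and 76, then 135, 147 and 199, log2 difference 0.91, adjusted p = 0.0181). Its call was lost, at 0.76 to 0.94, without LPS replicate 1 or 3 or LPS+Skatole replicate 2 or 3.

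The regions were spread thinly over genes. They lay at 756 genes, 695 with 1 region, 53 with 2, 7 with 3 and 1 with 5. The 5 regions in Lpp, an adhesion protein gene, are spread over a gene 599 kb long. The genes with 3 were Fnip2, Nfkb1, Oasl1, Sik3, Tbxas1, Thsd4 and Tnfrsf8. At Tbxas1, thromboxane synthase, a region at chr6:38981408-38983691 was called, with 28, 26 and 32 fragments and then 81, 62 and 56 (1.17, adjusted p = 0.0281 in limma). The call was kept without LPS+Skatole replicate 3 and lost without each other library, at 1.02 to 1.24. Within 10 kb of another LPS-induced region lay 104 of the 1271 (8.18%), in 46 groups of 2 and 4 groups of 3. The groups of 3 were at Tnfrsf8, Oasl1, Fpr1 with Fpr2 and an intergenic stretch of chr2.

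In position, the LPS-induced regions lay away from gene ends. The summit was within 3 kb of a protein-coding gene end in 175 (13.8%), inside a gene body in 580 (45.6%) and intergenic in 516 (40.6%). In the regions with a peak in all 9 libraries the shares were 53.0%, 28.6% and 18.4%. With a peak in 1 or 2 DMSO libraries, 20.8% and 24.5% lay within 3 kb of a gene end. The LPS-induced regions were thus nearer to the makeup of all 235070 merged regions, of which 17.1% lay within 3 kb of a gene end. The 803 regions with a peak in all LPS+Skatole libraries only had nearly the same shares, 12.7%, 47.2% and 40.1%. In the 161 regions lost with skatole the share at gene ends was 20.5%. The position is thus not particular to the LPS-induced regions kept under skatole. In these kept regions the median log2 difference with skatole was 0.30 at gene ends, 0.42 in gene bodies and 0.45 between genes. Over all regions tested it was 0.18, 0.35 and 0.37, so each class lay above its counterpart.

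**Figure D5:**
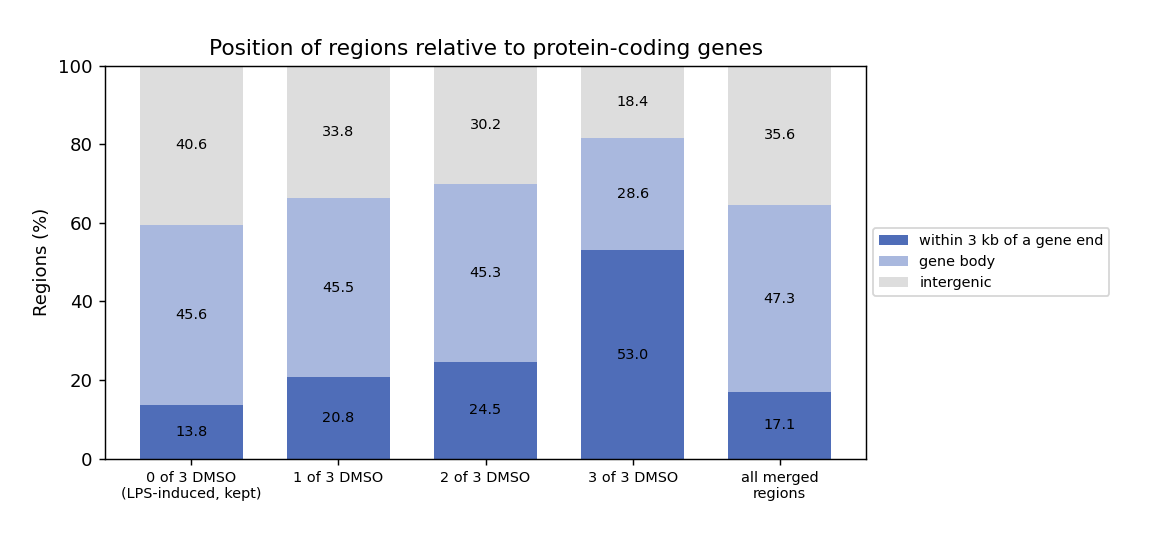
Share of regions (%, y axis) whose summit lay within 3 kb of a protein-coding gene end, in a gene body or between genes, for regions with a peak in all LPS and LPS+Skatole libraries and in 0, 1, 2 or 3 DMSO libraries, and for all merged regions. The share at gene ends is 13.8%, 20.8%, 24.5% and 53.0% with 0 to 3 DMSO libraries.

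Width followed the number of libraries with a peak, which merging itself can produce. The median width was 1403 bp in the LPS-induced regions, 1487 and 1670 bp in those with a peak in 1 or 2 DMSO libraries, and 2239 bp in those with a peak in all 9. Each of the 6 libraries had a single peak in 71.4%, 66.1%, 60.4% and 47.1% of these classes. The summits of the 6 libraries spanned a median of 417 bp, and in 16.8% they fell within 200 bp, against 460 bp and 18.5% with 1 DMSO library and 344 bp and 28.1% with all 9 libraries. Across the 1271 regions, Spearman's rho of the levels was 0.575 to 0.581 between LPS libraries, 0.591 to 0.620 between LPS+Skatole libraries and 0.481 to 0.530 across the groups. Over all 19799 regions it was 0.837 to 0.843, 0.805 to 0.807 and 0.789 to 0.795. These values are across regions, which share libraries and local background and are not replicates.

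Most LPS-induced regions stood apart from resting binding but not far from it. The nearest DMSO peak was a median of 4223 bp away, within 1000 bp for 209 regions (16.4%) and within 5000 bp for 702 (55.2%). The nearest region with a peak in all 9 libraries was a median of 19569 bp away. The local background was more than 5 times the genome background in 122 regions (9.60%), against 22.3% of the regions with a peak in all 9. The Y chromosome held 0 LPS-induced regions among only 13 regions tested, against 6.42% of all regions tested. On the other chromosomes they made up 4.78% (chromosome 19) to 8.33% (chromosome 9) of the regions tested.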

How the data were processed

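CUT&Tag peak lists of 9 libraries (3 each of DMSO, LPS and LPS+Skatole) were used as deposited, on mm10 per the labels. The submitters' processing notes name fastp 0.20.1, HISAT2 2.1.0 and StringTie 2.0 without a role. The peak caller, any control and the treatment of duplicates are not given in the sources used here. The authors called peaks in each library and deposited a score (10 times the −log10 p, cut to whole numbers), a fold over local background, a −log10 p and a −log10 q for each peak. Every list ends at a −log10 p of 5. Counts of fragments and local backgrounds were recovered from the fold and −log10 p, taking the fold as (count + 1)/(background + 1) and p as a Poisson upper tail. At least 99.99% of values came out whole within 0.05. Total reads were not used, so depth is known only as the genome background.

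Peaks were merged where they overlapped by 1 bp. The comparison of LPS+Skatole with LPS used limma 3.58.1 in R 4.3.3 with a mean trend on log2 level, Benjamini-Hochberg adjustment over 19799 regions, and a threshold of 0.05. Both scripts were tested on simulated data. No low-value filter and no pseudocount were applied. Genes and promoters came from RefSeq for GRCm38.p6, the assembly behind mm10. Of the protein-coding genes, 79.9% have a promoter entry. Percentiles are ranks of −log10 p within a list.

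Named were LPS-induced regions at listed genes, the 10 of highest mean percentile, the 5 highest called differences in each direction, genes with the most regions, and regions on both sides of the threshold. Single regions that this rule names are in part not reported here. Other regions named were chosen after their values were seen. The regions and gene lists were chosen with earlier results of these data known. Alternatives were list length, depth, summit windows, laxer rules, scaling, a replicate block and leaving out each library.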

Additional observations from a re-analysis of the deposited data

Results flagged for a closer look

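Peaks on sequences outside chromosomes 1 to 19, X and Y were not part of the comparisons. They numbered 424 over the 9 libraries and merged into 173 regions. Of these, 2 had a peak in 0 of 3 DMSO, 3 of 3 LPS and 3 of 3 LPS+Skatole libraries, a signal outside the main measurement and absent from the DMSO libraries. Both lie on unplaced sequences assigned to chromosome 1.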

How the results depend on the processing

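The number of regions that follow the rule was 1271. It was 680 with lists of equal length, 821 with equal background, 4398 with 2 of 3 LPS and 2 of 3 LPS+Skatole libraries enough, 3116 with 1 DMSO library allowed, and 1438 to 1973 when each library was left out in turn (1973 without DMSO replicate 2 and 1948 without DMSO replicate 3). It was 985 with peaks of at least 8 times the genome background and 858 with 200 bp around summits.

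The calls of LPS+Skatole against LPS depend on the scale. LPS-induced regions called higher were 88 as defined, 4 after median centring, 0 with the fold of the authors and 0 with percentiles. They were 18 with summed summits and 22 to 50 when each library was left out. For all regions the counts of higher calls were 741 as defined and 14, 5, 0, 132 and 200 to 414 under the same settings. The lower calls were 14 as defined, then 32, 2, 0 and 2, and 4 to 14 when each library was left out. With percentiles in the list, the unadjusted p in limma was under 0.05 for 206 of the 1271 and 2243 of all 19799. The median difference of the LPS-induced regions was 0.0919 after centring and 0.36 with the fold. Groups without overlap after centring numbered 152 above and 79 below.

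With the replicate block, 105 LPS-induced regions (8.26%) were higher and 1 lower, and 921 (4.65%) and 22 of all regions were. The correlation of deviations between same-numbered LPS and LPS+Skatole libraries was -0.00322 to 0.00164, so the libraries share only a number. All 88 calls were kept under the block. Of the 88, 10 were lower with the fold of the authors and 3 with percentiles. Peak1 was one of the 10, at -1.14. Detection in a library left out was 79.95% for LPS and 86.4% for LPS+Skatole with equal lists, and 89.2% for LPS+Skatole at 8 times the background. For DMSO it was 33.1% and 32.6% under these settings, where a mean of 24.3% and 21.1% of all merged regions held a peak, against 12.1% as defined. Listed genes with a region numbered 26 within 3 kb and 73 within 50 kb. The cause of these changes was not tested. The median peak held 30 to 43 fragments, and the smallest difference that could be detected at this depth was not measured.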
